A study of Bombyx mori with 4 samples.

Results

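Protein-coding genes whose transcripts were more abundant when Siwi was depleted were examined in BmN4 cells, an ovary-derived germ cell line of the silkworm Bombyx mori. A gene was included when it was not annotated as a transposon, had more than 10 RPKM (reads normalised to the length of the sequence and to the number of genome-mapped reads) in either condition, and had a log2 fold change (FC) above 1 between Siwi KD and Luc KD. FC was calculated on RPKM + 1. Of the 2617 protein-coding genes expressed by this threshold, 43 were included, out of 14300 protein-coding genes and 18596 sequences in all. These 43, selected on their RPKM and FC in the same libraries that are described below, are hereafter called the raised genes.

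The cells were transfected by electroporation with siRNA against luciferase (Luc KD, the control) or against Siwi (Siwi KD), with 2 libraries in each condition. All libraries therefore came from BmN4 cells that had received an siRNA duplex, and the labels differ in the target of the siRNA. The paper lists 1 duplex against Siwi, so loss of Siwi and any other effect of that duplex cannot be told apart. BmN4 is a cell line kept in culture, so the data describe these cultured cells and not the ovary of an animal. The libraries held 68702400 to 81135072 reads each. The authors merged the 2 libraries of a condition, and the deposited table gives 1 value per sequence and condition, so no spread between libraries is set against any difference below and no p-value was computed. Values of the separate libraries in the study's source data were not used here. The sequences received 77350240 reads in Luc KD against 84961588 reads in Siwi KD. As all read counts were even, errors were computed on read pairs, and they cover counting error only.

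Siwi is a PIWI protein of the silkworm. It is loaded with PIWI-interacting RNAs (piRNAs), small RNAs that guide it to complementary transcripts, which it then cleaves. Its main targets in germ cells are transposon mRNAs, and the cleavage products are passed on for the production of further piRNAs in nuage, the perinuclear granules that are assembled by the DEAD-box helicase Vasa. Most protein-coding mRNAs are not matched by abundant piRNAs, although the silkworm also offers a known case of a protein-coding target, Masculinizer, whose mRNA is cleaved by Siwi guided by the piRNA of the Feminizer locus in female embryos.

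The gene models are listed in the table by identifiers of the SilkBase annotation. None of the 16880 identifiers (0) matched the RefSeq gene table of the ASM3026992v2 assembly. The descriptions of the gene models that the authors used were not at hand here. The raised genes were therefore not given names or functions, and the levels of Siwi itself, of Masculinizer and of markers of germ cells were not analysed. Identifiers are given for 2 raised genes, and the others are referred to by their length, which differs among all 43. Nucleotide and protein sequences were not used here.

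The 43 raised genes made up 1.64% of the expressed protein-coding genes. The log2 FC chose these genes, so it describes them and tests nothing. It ranged from 1.01 to 3.44, with a median of 1.54. The median over all expressed protein-coding genes was -0.13, with quartiles of -0.29 and 0.05, so the raised genes stood at the far end of a distribution that was centred slightly below 0. In bulk RNA, a change in the RNA per cell and a change in the share of cells that carry the transcript cannot be told apart.

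Most raised genes had a log2 FC of 2 or lower. A log2 FC above 3 was found for 1 gene, between 2 and 3 for 8, between 1.5 and 2 for 18, and between 1 and 1.5 for 16. Expressed as ratios of RPKM without the pseudo-count, the levels were 2.05 to 12.05 times as high in Siwi KD as in Luc KD, with a median of 3.26.

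**Figure D1:**
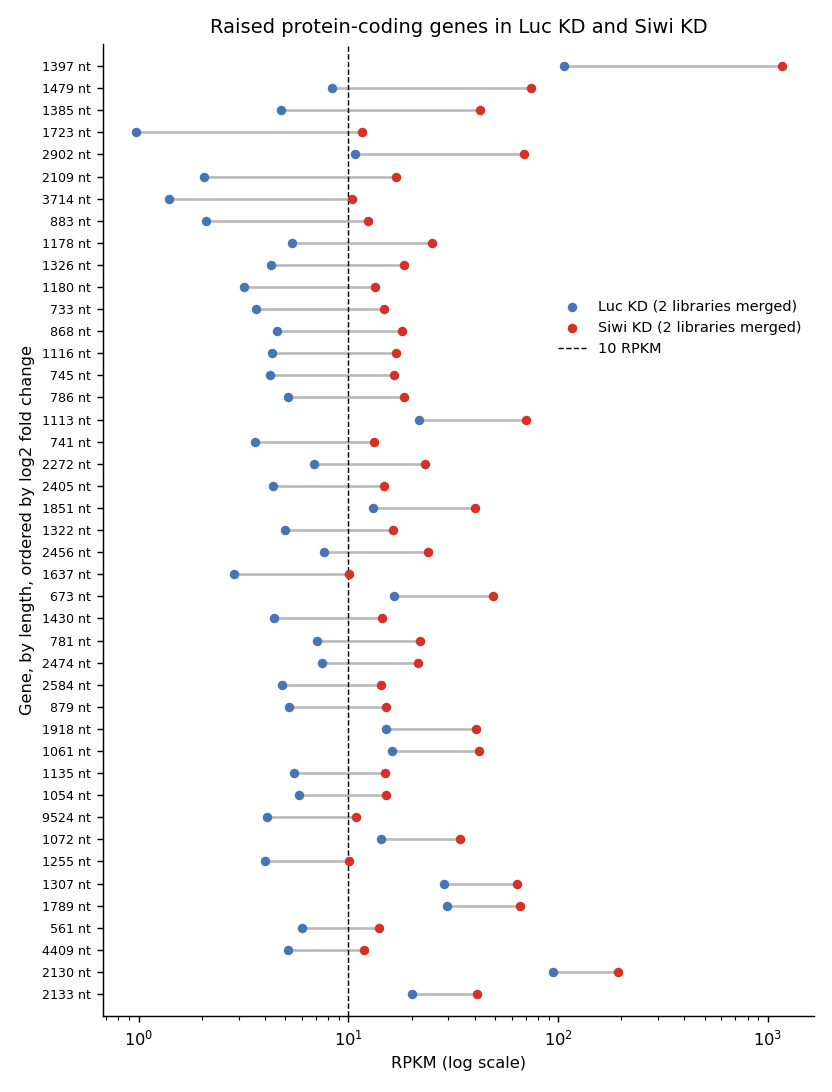
RPKM of the 43 raised genes in Luc KD (blue) and Siwi KD (red) on a log axis, each point being the merged value of 2 libraries and each line joining the values of 1 gene. Genes are named by length and ordered from the largest to the smallest log2 FC, and the dashed line marks 10 RPKM. The 1397-nt gene at the top lies apart from the others, at 1169 RPKM in Siwi KD, and 31 genes start to the left of the line.

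KWMTBOMO04085.mrna1, a gene model of 1397 nt, had the largest FC. Its level was 107 RPKM in the control, from 18260 reads, and 1169 RPKM in Siwi KD, from 211872 reads. The log2 FC was 3.44, with a counting error of 0.02 (1 SE), and the ratio of RPKM was 10.9. This transcript was already abundant in control cells, where it ranked 205th of the 2617 expressed protein-coding genes, and it ranked 27th in Siwi KD. Its gain of 1062 RPKM was the largest of any expressed protein-coding gene, and the next largest gain, of a gene that was not among the 43, was 120 RPKM. Hence a single transcript accounted for 55.3% of the RPKM gained by the raised genes together, and for 20.7% of that gained by all 809 expressed protein-coding genes with a higher level in Siwi KD.

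The other 8 genes with a log2 FC above 2 were at much lower levels. The 1479-nt gene went from 8.39 to 73.9 RPKM (log2 FC 2.997, counting error 0.05). The 1385-nt gene went from 4.77 to 42.3 RPKM (2.91, counting error 0.06). Together with the 1397-nt gene, these had the 3 largest FCs. The 2902-nt gene was the only one of the 8 above 10 RPKM in Luc KD, with 10.7 RPKM there against 68.5 RPKM in Siwi KD (2.57).

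The remaining 5 genes of this class had 0.969 to 5.40 RPKM in control cells. The 1723-nt gene had 0.969 RPKM in Luc KD, from 204 reads, the lowest level and the fewest reads among the raised genes. In Siwi KD it had 11.7 RPKM, from 2610 reads, and its ratio of RPKM, 12.05, was the largest of the 43, although 3 genes had a larger log2 FC on RPKM + 1 (2.69 for this gene). The 2109-nt gene had 2.05 and 17.0 RPKM, the 3714-nt gene 1.40 and 10.4 RPKM, the 883-nt gene 2.09 and 12.4 RPKM, and the 1178-nt gene 5.40 and 25.01 RPKM in Luc KD and Siwi KD, respectively. In Siwi KD, the median of the expressed protein-coding genes was 17.3 RPKM, and of these 5 only the 1178-nt gene was above it.

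The 18 genes with a log2 FC between 1.5 and 2 had 2.85 to 21.7 RPKM in the control and 10.1 to 70.03 RPKM in Siwi KD. Most of them were below 10 RPKM in the control, and 3 were above it. The 1113-nt gene was the highest of the class, at 21.7 RPKM in the control and 70.03 RPKM in Siwi KD (log2 FC 1.65). The 673-nt gene had 16.4 and 48.9 RPKM (1.52), and the 1851-nt gene had 13.1 and 40.2 RPKM (1.55).

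The 16 genes with a log2 FC of 1.5 or lower reached from 4.003 to 94.1 RPKM in the control and from 10.1 to 193 RPKM in Siwi KD. This class held 7 genes above 10 RPKM in the control. KWMTBOMO02368.mrna1, of 2130 nt, had the second-highest level of the 43 in both conditions, with 94.1 RPKM in the control from 24502 reads and 193 RPKM in Siwi KD from 53310 reads. Its log2 FC was 1.03, with a counting error of 0.02, so that it was abundant but only just past the limit of the rule. The 1789-nt gene had 29.5 and 65.5 RPKM (1.12) and the 1307-nt gene had 28.5 and 63.7 RPKM (1.14), which made them the next highest in Luc KD.

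The longest raised gene, of 9524 nt, went from 4.08 RPKM in the control to 10.9 RPKM in Siwi KD (1.23). Because of its length, these levels rested on 4744 and 13460 reads, more than those of most raised genes. The shortest, of 561 nt, had 5.98 and 13.95 RPKM (1.10) from 410 and 1016 reads, and its FC had the largest counting error, 0.10.

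**Figure D2:**
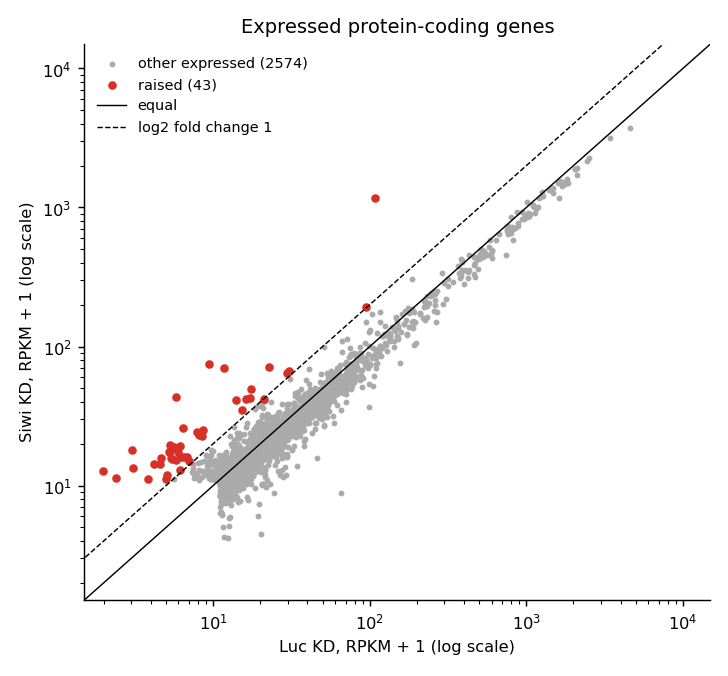
Levels of the 2617 expressed protein-coding genes as RPKM + 1 in Luc KD (horizontal) and Siwi KD (vertical), both on log axes, each point being 1 gene. The 43 raised genes (red) lie above the dashed line of a log2 FC of 1, and the solid line marks equal levels. Only the 1397-nt and 2130-nt genes reach more than 100 RPKM in Siwi KD among the raised genes, whereas most are at the lower left.

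In Luc KD, 12 raised genes were above 10 RPKM and 31 were not. The 31 were counted as expressed only because of their level in Siwi KD. Their control levels were 0.969 to 8.39 RPKM, with a median of 4.58, and their levels in Siwi KD were 10.1 to 73.9 RPKM, with a median of 15.1. Of these, 19 were below 5 RPKM in Luc KD. They were 22.0% of the 141 protein-coding genes that were above 10 RPKM only in Siwi KD, a group in which a rise is built in by the threshold. The 12 genes already above 10 RPKM in the control had 10.7 to 107 RPKM there, with a median of 18.2, and 33.9 to 1169 RPKM in Siwi KD, with a median of 56.3. Their median log2 FC was 1.34, against 1.61 for the 31, a difference that is not independent of the rule, since the 31 passed it only through Siwi KD.

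In Siwi KD, 24 of the raised genes had 20 RPKM or less, 12 had between 20 and 50 RPKM, and 7 had more than 50 RPKM. Above 100 RPKM were 2 of the raised genes, out of 195 expressed protein-coding genes at that level. The gain in RPKM was 20 or less for 30 of the 43 and above 50 for 4, and its median was 13.4.

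Together, the raised genes had 531 RPKM in the control and 2451 RPKM in Siwi KD, a ratio of 4.62. They held 0.298% of the summed RPKM of the expressed protein-coding genes in Luc KD (178321 RPKM) and 1.52% in Siwi KD (160731 RPKM). Much of this was due to the 1397-nt gene, which contributed 20.1% of their sum in Luc KD and 47.7% in Siwi KD. Without it, the sum over the other 42 went from 424 to 1282 RPKM, a ratio of 3.02. The gain of all 43, 1920 RPKM, was 37.4% of the RPKM gained by the 809 expressed protein-coding genes with a higher level in Siwi KD. Among the 50 expressed protein-coding genes with the largest gains in RPKM, 17 were raised genes, so that many large gains came from abundant genes with smaller FCs.

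The raised gene with the fewest reads had 1426 over both conditions, and the counting error of the log2 FC was between 0.02 and 0.10. For 38 genes the 95% interval of counting error lay wholly above 1, and for 5 it included 1. These 5 were the 2133-nt gene (interval 0.94 to 1.07), the 2130-nt gene (0.997 to 1.06), the 4409-nt gene (0.99 to 1.149), the 561-nt gene (0.89 to 1.31) and the 1255-nt gene (0.99 to 1.30). The genes had been selected at a log2 FC above 1 on the same values, so these intervals describe the precision of counting and do not test the limit. Differences between the libraries of a condition are not part of them.

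The limit of the rule did not fall in a gap. Just inside it, the 2133-nt gene went from 20.01 RPKM in the control to 41.2 RPKM in Siwi KD (log2 FC 1.01), and the 4409-nt gene had 5.14 and 11.9 RPKM (1.07). Just outside it, a gene of 5065 nt had 4.65 and 10.2 RPKM (0.99), and genes of 1123 nt and 956 nt had 17.6 and 35.8 RPKM and 19.5 and 39.5 RPKM (both 0.98). A further 79 expressed protein-coding genes had a log2 FC between 0.5 and 1.

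The size of the group followed the settings of the rule. When 10 instead of 1 was added to RPKM, only 10 of the 43 remained above a log2 FC of 1. With the level set at 20 RPKM, 19 of the 43 remained. Without any limit of level, 103 protein-coding genes passed, the 43 included, which was 0.826% of those with a read.

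Length was not part of the rule except through RPKM. The lengths of the raised genes ran from 561 to 9524 nt, with a median of 1326 nt and quartiles of 1058 and 2120 nt. For all expressed protein-coding genes, the median was 1279 nt and the quartiles 831 and 1903 nt. When the expressed genes were divided at these quartiles, 7 raised genes were in the shortest class (275 to 831 nt), 12 in the next (832 to 1279 nt), 11 in the third (1281 to 1903 nt) and 13 in the longest (1904 to 15787 nt). These were 1.07%, 1.84%, 1.68% and 1.99% of the genes of the respective class. The difference in length was not tested, since genes are not replicates.

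**Figure D3:**
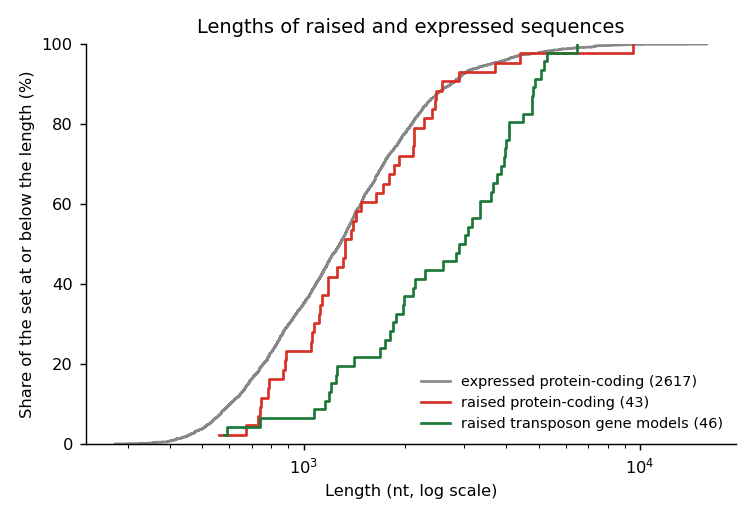
Cumulative share of sequences at or below a given length (nt, log axis) for all 2617 expressed protein-coding genes (grey), the 43 raised genes (red) and the 46 gene models annotated as transposons that passed the same rule (green). The red curve lies slightly to the right of the grey one at the quartiles (1058 and 2120 nt against 831 and 1903 nt) and close to it at the median (1326 and 1279 nt), and the green curve has a median of 2959 nt.

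The same limits of level and FC were also applied to the transposons. They were passed by 66 of the 389 expressed transposons (17.0%), of which 46 were gene models, out of 239 expressed ones (19.2%). The 46 gene models are set beside the raised genes here because they come from the same annotation. They were longer, with a median of 2959 nt, against 1326 nt for the raised genes and 3132 nt for all expressed transposon gene models. Their level in Luc KD had a median of 7.89 RPKM, against 5.21 RPKM for the raised genes, and in Siwi KD the medians were 23.2 and 17.9 RPKM. Of the 46, 29 were at or below 10 RPKM in the control. Their log2 FC ranged from 1.01 to 3.15 with a median of 1.39, and the lower end of this range is set by the rule in both groups. Before selection, the median was 0.37 over the 239 expressed transposon gene models and -0.13 over the expressed protein-coding genes. In sum, the 46 transposon gene models went from 612 to 2182 RPKM, a gain of 1569 RPKM, which is below the 1920 RPKM gained by the 43 raised genes. Without the 1397-nt gene, and with all 46 transposon gene models kept, the gain of the raised genes would be the smaller one.

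The annotation decides which of these groups a gene model is in. The authors called a gene model a transposon when its description named one, or when BLASTN against the listed transposons gave more than 90% in both coverage and identity. Models with partial similarity to a transposon could therefore stay among the protein-coding genes. Mapping was also done in the random and multiple modes of counting, and near-identical sequences can then share reads. The similarity of the 43 to transposons or to each other was not tested, and their individual levels are uncertain to that extent.

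The numbers in the identifiers were used to ask whether raised genes lay beside one another. The numbers run from 1 to 16880 with 0 missing, and whether they follow the order of genes on the chromosomes is not given in the sources used here. The raised genes were spread from 928 to 16636. Consecutive raised genes were 11 to 1262 numbers apart, with a median of 245, so that no raised gene was next to another one. None of the 43 (0) had a sequence above 10 RPKM with a log2 FC above 1 at either adjacent number, nor within 3 numbers. Of all expressed protein-coding genes, 0.879% had one at an adjacent number and 2.98% within 3 numbers. Against so low a background, the absence among 43 genes says little.

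At the 86 adjacent numbers there were 76 gene models with a read, and their median log2 FC was 0.07. For the neighbours of all expressed protein-coding genes it was -0.03. Over all adjacent numbers, the median level in Siwi KD was 0.950 RPKM beside raised genes and 4.23 RPKM beside expressed protein-coding genes. The added 1 RPKM draws log2 FC toward 0 at such low levels. Among neighbours above 10 RPKM in either condition, the median log2 FC was -0.15 for the 16 beside raised genes. It was -0.13 for those beside all expressed protein-coding genes. Above 1 were 3 neighbours of raised genes, or 3.95%, all of them protein-coding and below 10 RPKM in both conditions, compared with 0.828% of the neighbours of all expressed protein-coding genes, a difference that was not tested. The 1326-nt raised gene, with 4.29 and 18.5 RPKM, was followed by a gene model of 456 nt with 2.44 and 8.21 RPKM (log2 FC 1.42). The 1255-nt raised gene, with 4.003 and 10.1 RPKM, was preceded by a model of 809 nt with 1.64 and 5.35 RPKM (1.27). The 1637-nt raised gene, with 2.85 and 10.1 RPKM, was preceded by a model of 1623 nt with 0.403 and 2.09 RPKM (1.14). Both members of each pair had been picked by a log2 FC above 1, so their joint rise follows from that choice.

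The following neighbourhoods are picked examples, and the share of such neighbourhoods among all raised genes was not computed. Higher levels over more than 1 number were found around the 786-nt raised gene, which had 5.14 and 18.3 RPKM. The 2 models before it had 0.931 and 2.20 RPKM (log2 FC 0.73) and 3.93 and 8.20 RPKM (0.90), whereas the model 3 numbers after it went from 1.01 to 0.215 RPKM (-0.72). The 781-nt raised gene, with 7.08 and 21.9 RPKM, was followed by a model of 695 nt that was more abundant than itself, with 18.9 and 36.5 RPKM (0.92). For the 1397-nt gene, the adjacent models on both sides had less than 1 RPKM in each condition, and the model 2 numbers before it, of 2842 nt, had 102 and 170 RPKM (0.74).

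Gene models annotated as transposons were found at an adjacent number for 14 of the 43 raised genes (32.6%). The share was 15.8% for expressed protein-coding genes and 22.4% for all 14300 protein-coding genes. The shares were 60.5%, 43.8% and 51.5% within 3 numbers and 72.1%, 64.0% and 69.7% within 5 numbers, respectively. Counted instead over neighbouring models with a read, transposon models made up 26.3% at adjacent numbers around raised genes. Around expressed protein-coding genes they made up 8.60%, and the share around all 14300 protein-coding genes was not computed in this way. At exactly 2 numbers, the order was the opposite, with 9.59% and 11.5%. At exactly 3, 4 and 5 numbers, the shares were 24.3% and 12.5%, 23.4% and 13.8%, and 20% and 14.7%, respectively. The neighbourhoods differed in expression as well. Of the models at adjacent numbers, 18.6% were above 10 RPKM for raised genes, 31.0% for expressed protein-coding genes and 17.97% for all protein-coding genes. The part of this in the share of transposon models was not tested.

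The 20 adjacent models annotated as transposons had a median log2 FC of 0.08, with a range from -0.23 to 0.44, so none exceeded 1. Their median level in Siwi KD was 0.779 RPKM. A model below 1 RPKM in Siwi KD cannot have a log2 FC above 1 on RPKM + 1, so for such models this outcome was fixed in advance. Over all 2504 transposon gene models with a read, the median log2 FC was 0.10. All but 2 of the 20 were at or below 10 RPKM in both conditions, and the highest, beside the 2130-nt raised gene, had 68.7 RPKM in Siwi KD. Within 5 numbers, 1 raised gene had a transposon model above 10 RPKM with a log2 FC above 1, which is 2.33% of the 43 against 2.22% of the expressed protein-coding genes. This was the 1918-nt gene, with 15.2 and 40.8 RPKM. The transposon model lay 4 numbers after it and went from 6.42 to 19.2 RPKM (1.45).

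**Figure D4:**
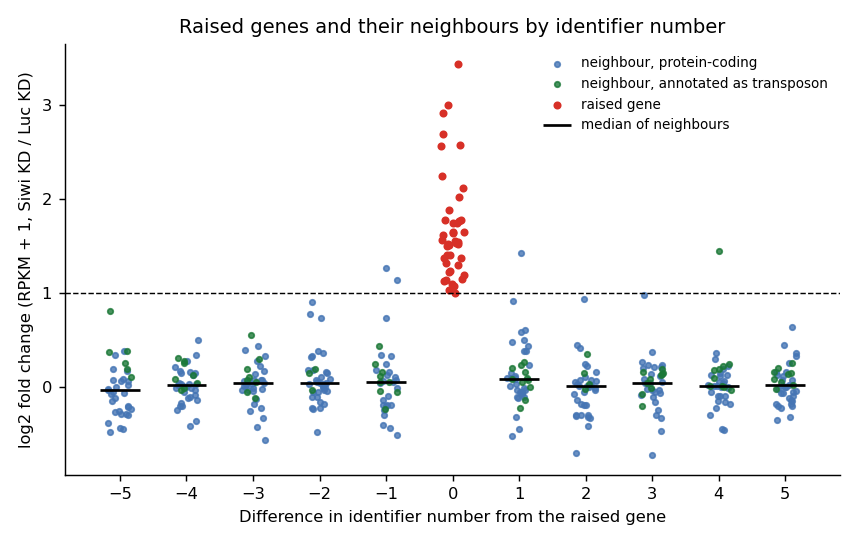
Log2 FC of the 43 raised genes (red, at 0) and of the gene models with a read at up to 5 numbers before and after them, protein-coding (blue) or annotated as transposons (green). Black bars are medians of the neighbours and the dashed line marks a log2 FC of 1. The neighbours lie around 0 at each distance, and 4 of them exceed 1. Over all adjacent numbers, their median level in Siwi KD was 0.950 RPKM, and the added 1 RPKM draws log2 FC toward 0 at such levels.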

How the data were processed

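Total RNA of BmN4 cells was sequenced as paired-end reads from strand-specific libraries depleted of ribosomal RNA with a kit for human, mouse and rat RNA. The authors corrected and trimmed the reads (Trim Galore 0.6.6 in the submitters' processing notes), mapped them with STAR to the SilkBase genome and then to a library of gene models and listed transposons, took sense reads with SAMtools and merged the 2 libraries of each condition. The deposited read counts are not normalized. The authors obtained the deposited RPKM by dividing these counts by sequence length and by the reads mapped to the genome, which the values put at 122229138 for Luc KD and 129779634 for Siwi KD.

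From these, log2((Siwi KD RPKM + 1) / (Luc KD RPKM + 1)) was computed for every sequence. Counting errors treat a pair of reads as 1 count, and 95% intervals are 1.96 errors wide on each side. The genes and lists were chosen with earlier results of these data known. Identifiers were to be printed for the gene with the largest log2 FC and that with the highest RPKM in Siwi KD; since 1 gene met both, the next by RPKM was taken. A test across libraries was planned only for a table with separate libraries and was not run. The study's source data give values per library; no value was taken from them. Python 3.11.15 with numpy 2.4.6, pandas 2.3.3 and matplotlib 3.10.9 was used. The calculation was tested on simulated counts for the 2617 expressed protein-coding genes. Of genes raised by a known amount, 100 of 100 were recovered above a log2 FC of 1, and 0 of 2417 unchanged genes were. That amount was well past the limit, and the simulated counts held counting error but no differences between libraries. The simulation therefore checks the arithmetic and not the calls near the limit.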

Additional observations from a re-analysis of the deposited data

How the results depend on the processing

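The count of raised genes was 48 with a pseudo-count of 0.1, 10 with a pseudo-count of 10, 57 relative to the median of the expressed protein-coding genes (-0.13) and 58 when scaled to the reads on protein-coding genes. It was 66 above 5 RPKM, 19 above 20 RPKM and 103 with no RPKM limit, and these sets held all 43, apart from those with a pseudo-count of 10 and above 20 RPKM, which held 10 and 19 of them. The median log2 FC of the 43, 1.54, was 1.69 with a pseudo-count of 0.1, 0.90 with one of 10 and 1.67 when set against the protein-coding median, and it was 1.32 over the genes raised with no RPKM limit. The ratio of summed RPKM, 4.62, was 3.02 without the 1397-nt gene, and 4.49 above 5 RPKM, 4.85 above 20 RPKM and 4.47 with no limit. The median length was 1324 nt, 1479 nt and 1321 nt under these 3 limits. Each setting defines its own raised genes and raised neighbours. A raised sequence at an adjacent number was found for 0 of 43 in the report and 2 of 57 relative to the protein-coding median. It was found for 2 of 58 when scaled to protein-coding reads, 5 of 66 above 5 RPKM and 13 of 103 with no limit. No share over all genes is set beside the counts under these other settings. Of the 43, 6.98% had an adjacent model with a log2 FC above 1 at any level, against 1.6% of the expressed protein-coding genes. Lower limits admit more sequences by construction. Setting the log2 FC against a median of -0.13 raises every value by the same amount, and the scaling multiplies Siwi KD RPKM by 1.08. A larger pseudo-count draws the log2 FC toward 0, most of all at low levels. No paired analysis was possible because the deposited table merges the 2 libraries of each condition, and for the same reason no library was left out; values per library in the study's source data were not used here.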

Other observations

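Below the level used in the report, a log2 FC above 1 on RPKM + 1 was found for a further 60 protein-coding genes that stayed at or under 10 RPKM in both conditions. They had at least 64 reads each over both conditions and a median of 3.97 RPKM in Siwi KD, and their log2 FC reached 1.97. No read was counted in Luc KD for 3 of them. Their median length was 1206 nt. The highest in Siwi KD, of 544 nt, went from 2.59 to 9.86 RPKM. These genes were 103 with the 43 raised genes, or 0.826% of the protein-coding genes with a read.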
